A study of Equus caballus with 68 samples.

Results

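Mitochondrial fatty-acid oxidation enzymes were described in equine bone marrow mononuclear cells (BMNC) before and during culture in synovial fluid. The genes were taken as the rows of the expression table whose symbol was CPT1A, CPT2, ACADM, ACADL, ACADVL, HADH, HADHA, HADHB, ACAA2 or ECHS1. Of these 10 symbols, 8 had a row among the 30371 genes listed, and HADH and HADHB were not analysed here. All 8 genes with a row were among the 14570 genes tested, and each had reads in all 68 libraries. Their identifiers in the table are ENSECAG00000016852 (CPT1A), ENSECAG00000022130 (CPT2), ENSECAG00000021085 (ACADM), ENSECAG00000015014 (ACADL), ENSECAG00000024844 (ACADVL), ENSECAG00000015725 (HADHA), ENSECAG00000019394 (ACAA2) and ENSECAG00000012703 (ECHS1).

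BMNC are the leukocytes and progenitors that remain when marrow is freed of most red cells and granulocytes. They came from 8 Thoroughbred horses aged 3 to 9 years, of which 6 were geldings and 2 were female, and each horse served as its own control. The cells were sequenced uncultured (0 h, 8 libraries) or after culture in undiluted fluid from the joints of the same horse. That fluid was either normal synovial fluid (SF), from healthy middle carpal joints, or inflamed synovial fluid (ISF), from the radiocarpal joints. ISF was drawn 8 h after lipopolysaccharide had been injected into the joint, and stored fluid was added to the cultures every 48 h. The joint of origin thus differed between the fluids together with inflammation, and their parts cannot be told apart. Each fluid gave 7 libraries at 48 h, 8 at 96 h, 8 at 6 d and 7 at 10 d, with 1 well per horse, fluid and time. The horse named Moon had no 48 h cultures and the horse named Flash none at 10 d. The unit of the table, GeTMM, divides reads by gene length and then brings the libraries to a common scale, so levels of different genes can be set side by side.

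Long-chain fatty acids enter the mitochondrion as carnitine esters. CPT1A, on the outer membrane, makes the ester and is the step that malonyl-CoA blocks, and CPT2, on the inner membrane, reverses it. Beta-oxidation then repeats a cycle of dehydrogenation, hydration, a second dehydrogenation and thiolysis, which sheds acetyl-CoA for the citric acid cycle. ACADVL, ACADL and ACADM are the acyl-CoA dehydrogenases for very long, long and medium chains. ECHS1 is the enoyl-CoA hydratase of shorter chains, HADHA is the trifunctional protein subunit that hydrates and dehydrogenates long chains, and ACAA2 is the thiolase that releases acetyl-CoA. In macrophages this pathway is known chiefly from alternative activation, in which cells draw on fatty acids, whereas cells exposed to lipopolysaccharide lean on glycolysis.

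Depth, as reads assigned to genes, was 15.65 to 35.97 M per library (median 22.3 M). Levels of cell type markers changed with culture. The summed GeTMM of 7 macrophage markers (7 of 7 with a row) was 184 to 307 at 0 h, 47200 to 82485 in ISF at 10 d and 29897 to 75174 in SF at 10 d. Over the same span, the sum of 6 of 8 neutrophil precursor markers went from 11356 to 20997 at 0 h to 0.759 to 63.7 in ISF and 2.15 to 1648 in SF. The sum of 5 of 5 T cell markers went from 127 to 321 to 4.33 to 14.8 in ISF and 23.5 to 199 in SF, and that of 4 of 5 erythroid markers went from 76.2 to 1230 to at most 1.32 in ISF, where ALAS2 was at 0 in every 10 d library, and at most 1.53 in SF. Stromal markers (5 of 5) reached 4038 in SF at 10 d, in the library of Lurie, and 49.2 in ISF. Their part in the results was not tested, and in such bulk samples fewer cells of a type and less RNA per cell cannot be told apart. By the 200 genes that best mark a horse, 66 of 68 libraries were closest to the other libraries of the labelled horse, and at 96 h the Dealings and Dreamer libraries of ISF were each closest to those of the other horse. The SF library of Moon at 6 d also stood apart, and for all 8 enzymes its level lay outside the range of the other 7 horses. Its GeTMM summed to 2321940 over all genes, where the other 67 libraries had 817795 to 1458342, and rescaling by the median of ratios gave it a factor of 0.8727. Where leaving out these libraries changed a call or a count described here, the value without them is given too.

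At 0 h the enzymes spanned a wide range of GeTMM levels. ACADVL was the highest, with a mean of 193 ± 22.7 (SD, n = 8), and ACADL the lowest, with 1.96 ± 0.793. Between them lay ECHS1 at 58.3 ± 7.15, ACADM at 52.3 ± 15.1, HADHA at 43.9 ± 4.72, CPT1A at 34.5 ± 10.6, CPT2 at 24.2 ± 4.5 and ACAA2 at 13 ± 2.41 GeTMM. Of the neighbours in this order, ACADVL was above ECHS1, CPT2 above ACAA2 and ACAA2 above ACADL in all 8 libraries, whereas ECHS1 and ACADM, ACADM and HADHA, and HADHA and CPT1A changed places in 2 libraries each, and CPT1A and CPT2 in 1. The medium- and very-long-chain dehydrogenases were thus present in uncultured marrow, while the long-chain enzyme ACADL rested on 21 to 67 reads per library at 0 h.

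**Figure D1:**
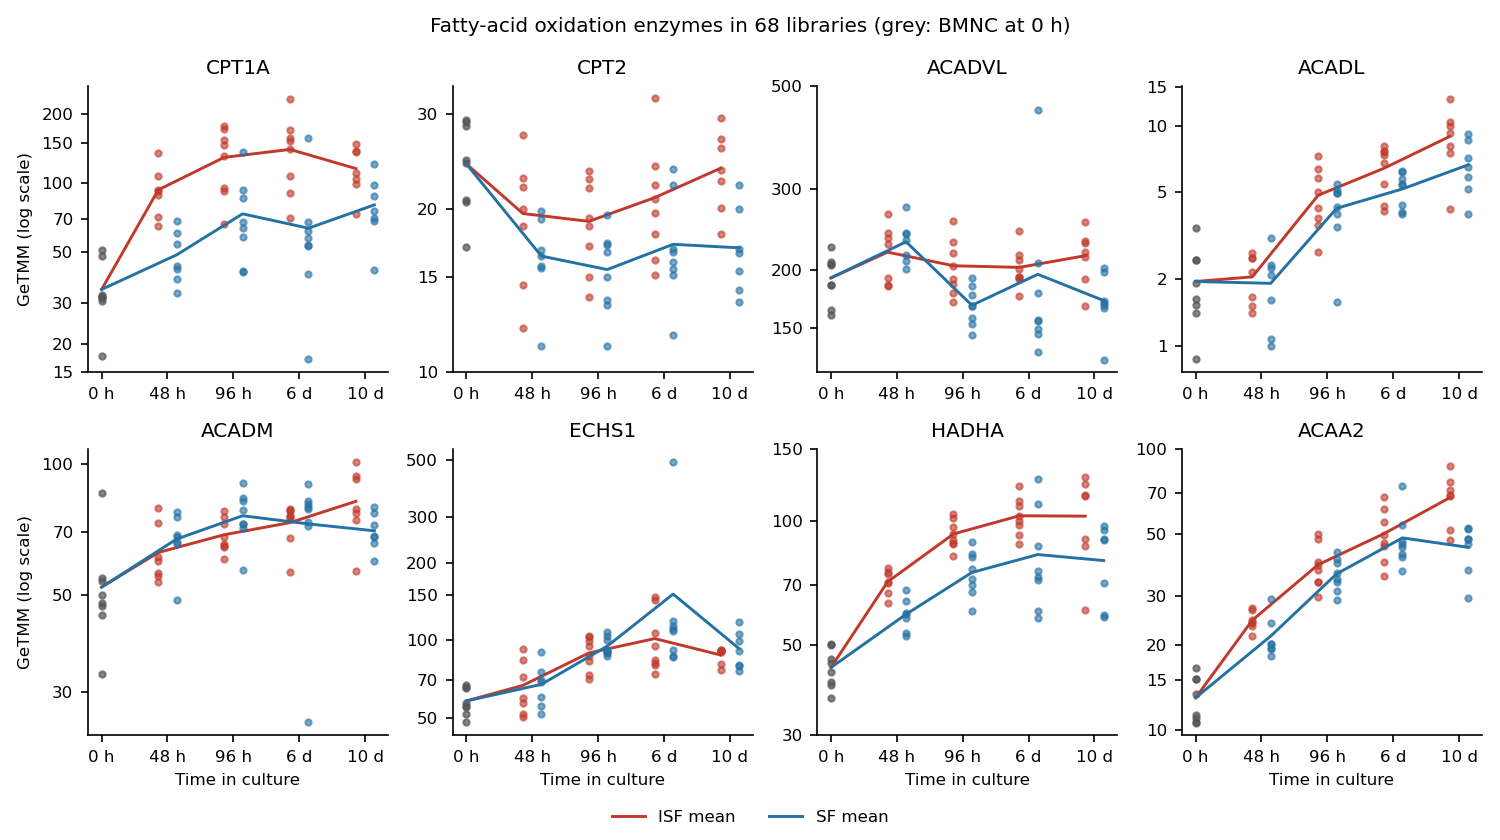
Level of each enzyme in every library (GeTMM, log scale) against time in culture, with grey points for BMNC at 0 h, red points for ISF, blue points for SF and lines through the group means. CPT1A, HADHA, ACAA2 and ACADL rose over culture in both fluids, CPT2 fell in SF, and the SF library of Moon at 6 d is the far point for ACADVL at 443, ECHS1 at 492 and ACADM at 25.6.

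Over 10 d in ISF, 6 of the 8 enzymes rose and none fell, against a background of 36.1% of all genes called higher and 38.4% called lower (limma, Benjamini-Hochberg FDR under 0.05). Over 10 d in SF, 6 rose and CPT2 fell, where 34.7% of all genes were higher and 34.9% lower. The median log2 change of the 8 enzymes was 0.92 in ISF and 0.74 in SF, beside −0.03 and −0.01 over all genes tested. Both comparisons use the same 0 h libraries. The 6 risers were ACAA2, ACADL, CPT1A, HADHA, ACADM and ECHS1 in each fluid, and every 10 d library of ISF lay above every 0 h library for 5 of the 8 enzymes and every 10 d library of SF for 4, as did 24% and 21.7% of all genes tested.

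CPT1A, the entry enzyme, was 17.7 to 51 GeTMM at 0 h, with a median of 31.9. In ISF it was 65 to 136 at 48 h (median 93), 66.7 to 178 at 96 h (median 139), 70.6 to 233 at 6 d (median 147) and 73.4 to 149 at 10 d (median 111). In SF it was 33.3 to 68.7 at 48 h (median 43.8), 41.2 to 137 at 96 h (median 65.8), 17.2 to 158 at 6 d (median 55.8) and 41.9 to 121 at 10 d (median 75.5). All ISF libraries at every time lay above all 0 h libraries, whereas SF overlapped them at each time. From 0 to 48 h CPT1A rose in ISF by 1.44 ± 0.27 log2 units (SE, limma, FDR = 6.97e-06), in 7 of 7 horses, and in SF it was 0.51 ± 0.27 higher, which did not pass the test (FDR = 0.117). From 0 h to 10 d it rose by 1.74 ± 0.27 in ISF (FDR = 4.51e-08) and 1.20 ± 0.27 in SF (FDR = 8.07e-05), in 7 of 7 horses each.

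CPT2, the partner enzyme on the inner membrane, did not follow CPT1A. It was 17 to 29.2 GeTMM at 0 h (median 24.4), 12.1 to 27.4 in ISF at 48 h (median 20) and 18 to 29.5 in ISF at 10 d (median 23.6). In SF it was 11.2 to 19.8 at 48 h (median 16.4) and 13.5 to 22.2 at 10 d (median 16.6), which overlapped the 0 h range only at its upper end. CPT2 fell in SF by 0.53 log2 units from 0 to 48 h (SE 0.15, FDR = 0.00222) and by 0.49 from 0 h to 10 d (SE 0.15, FDR = 0.003), and 0 of 7 horses were higher at either time. In ISF it differed from 0 h by −0.31 ± 0.15 at 48 h (FDR = 0.0698, and past the threshold with horse as a block) and −0.02 ± 0.15 at 10 d (FDR = 0.905). The ratio of CPT1A to CPT2, both in GeTMM, had a median of 1.39 at 0 h, 4.97, 6.72, 6.18 and 4.39 in ISF at 48 h, 96 h, 6 d and 10 d, and 3.45, 4.3, 3.49 and 4.43 in SF.

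Of the acyl-CoA dehydrogenases, ACADL showed the largest rise, ACADM a smaller one, and ACADVL no call over 10 d. ACADL was 0.867 to 3.41 GeTMM at 0 h (median 1.77) and still 1.41 to 2.64 in ISF and 0.999 to 3.1 in SF at 48 h. At 96 h it was 2.67 to 7.26 in ISF (median 4.62) and 1.58 to 5.42 in SF (median 4.59), and at 10 d 4.16 to 13.2 in ISF (median 9.3) and 3.98 to 9.19 in SF (median 6.51). The ISF libraries at 96 h all lay above those at 48 h, the SF libraries overlapped, and ACADL rose in 7 of 7 horses in each fluid. Its rise thus came after 48 h: from 0 to 48 h the log2 change was 0.07 ± 0.19 in ISF and −0.02 ± 0.19 in SF (FDR = 0.771 and 0.959), and from 48 to 96 h it was 0.90 ± 0.19 in ISF (FDR = 0.000263) and 0.83 ± 0.19 in SF (FDR = 0.000467). With a pseudocount of 1 on the log scale such fold changes of a low gene are understated.

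ACADM was 33 to 85.7 GeTMM at 0 h (median 49.1), 56.9 to 101 in ISF at 10 d (median 79) and 60.1 to 79.8 in SF at 10 d (median 68.4). The ranges overlapped through the 0 h library of Ollie, the highest of its group at 85.7. ACADM rose by 0.66 ± 0.15 log2 units in ISF (FDR = 7.15e-05; 7 of 7 horses) and 0.46 ± 0.15 in SF (FDR = 0.00532; 6 of 7 horses).

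ACADVL, the most abundant enzyme in every group by mean GeTMM, was 160 to 225 at 0 h (median 196), 167 to 254 in ISF at 10 d (median 219) and 128 to 202 in SF at 10 d (median 170). These ranges overlapped, and the log2 changes from 0 h to 10 d were 0.15 ± 0.13 in ISF and −0.17 ± 0.13 in SF (FDR = 0.287 and 0.256). From 0 to 48 h in SF the change was 0.26 ± 0.13 (FDR = 0.106), which passed with horse as a block (FDR = 0.0415) and without the SF library of Moon at 6 d (FDR = 0.0191). Within SF, ACADVL then fell from 201 to 274 GeTMM at 48 h (median 233) to 145 to 192 at 96 h (median 167). These SF groups did not overlap, 0 of 7 horses were higher at 96 h, and the drop was 0.45 log2 units (SE 0.13, FDR = 0.00671), whereas the change in ISF was −0.10 ± 0.13 (FDR = 0.682).

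HADHA, which carries long chains through hydration and the second dehydrogenation, was 37.1 to 50.3 GeTMM at 0 h (median 44). It was 63.2 to 76.7 in ISF (median 71) and 52.5 to 68.1 in SF (median 59.3) at 48 h, and 60.7 to 128 in ISF (median 115) and 58.4 to 97.5 in SF (median 90) at 10 d. All cultured libraries at these times lay above all 0 h libraries. HADHA rose by 0.69 ± 0.12 log2 units in ISF and 0.43 ± 0.12 in SF from 0 to 48 h (FDR = 4.15e-06 and 0.00378), and by 1.18 ± 0.12 and 0.83 ± 0.12 from 0 h to 10 d (FDR = 6.97e-13 and 3.2e-08).

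ACAA2, the thiolase, had the largest net change of the 8 enzymes in each fluid on the log2 scale with a pseudocount of 1. In SF its lead over the low gene ACADL depended on that scale. Over the alternatives the SF change was 1.64 to 1.78 for ACAA2 and 1.33 to 1.79 for ACADL. In mean GeTMM ACAA2 went from 13 to 44.6 and ACADL from 1.96 to 6.64. ACAA2 was 10.6 to 16.6 GeTMM at 0 h (median 12.4). In ISF it was 21.5 to 27.1 at 48 h (median 24.3), 29.8 to 49.9 at 96 h (median 37.8), 35.2 to 67.4 at 6 d (median 47.9) and 47.4 to 87 at 10 d (median 68.7). In SF it was 18.3 to 29.3 (median 20.2), 29.1 to 43 (median 35.2), 36.9 to 74.1 (median 45.3) and 29.5 to 52.5 (median 47.9) at the same times. No cultured library overlapped the 0 h range at any time. From 0 h to 10 d ACAA2 rose by 2.28 ± 0.13 log2 units in ISF (FDR = 1.48e-23) and 1.70 ± 0.13 in SF (FDR = 1.04e-17), in 7 of 7 horses each.

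ECHS1, the short-chain hydratase, was 48.1 to 67.3 GeTMM at 0 h (median 56.2), 76.8 to 92.1 in ISF at 10 d (median 91.1) and 75.9 to 118 in SF at 10 d (median 91.2). All 10 d libraries lay above all 0 h libraries, and the log2 changes were 0.59 ± 0.19 in ISF (FDR = 0.00379) and 0.66 ± 0.19 in SF (FDR = 0.0015). Its highest level, 492, was in the SF library of Moon at 6 d, where the other 7 horses had 86.5 to 119. The mean of SF at 6 d was 151 ± 138 GeTMM (SD, n = 8) with that library and 103 ± 13.6 (n = 7) without it.

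**Figure D2:**
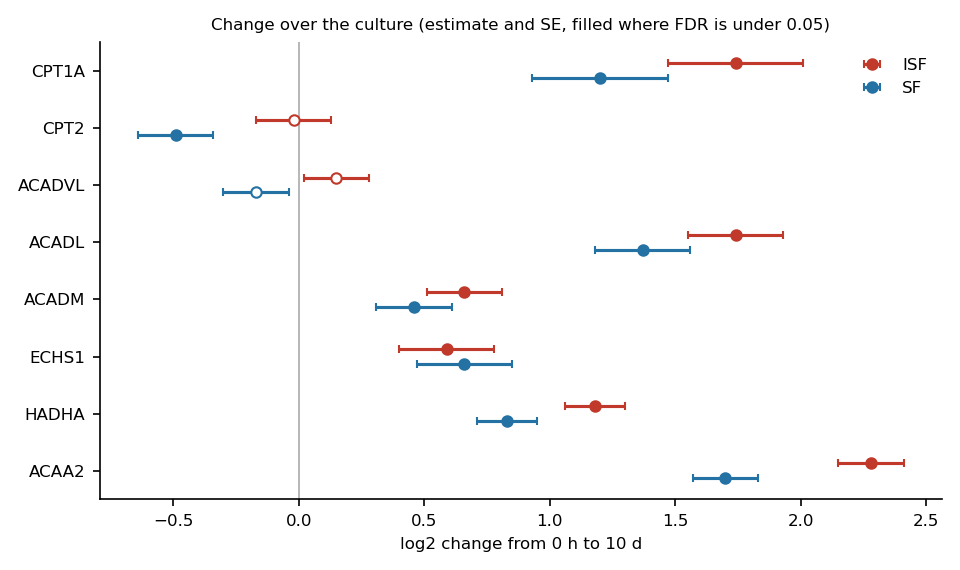
Log2 change of each enzyme from 0 h to 10 d in ISF (red) and SF (blue), as the limma estimate with its SE and filled where the FDR is under 0.05. ACAA2 is farthest to the right at 2.28 in ISF and 1.70 in SF, and CPT2 in SF is the only filled point below 0, at −0.49.

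By interval, most calls came before 96 h. From 0 to 48 h in ISF, CPT1A, HADHA and ACAA2 rose (3 of 8, where 25.3% of all genes were called higher and 27.4% lower), and ACADM was called too without the SF library of Moon at 6 d. From 0 to 48 h in SF, ACAA2, HADHA and ACADM rose and CPT2 fell, with 22.3% of all genes higher and 23.1% lower. ACADM, at 0.39 ± 0.15 log2 units (FDR = 0.0268), kept its call without Dreamer, Moon, Ollie or RimRun but not without Catnip, Dealings, Flash or Lurie.

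From 48 to 96 h in ISF, ACADL, ACAA2 and HADHA rose, where 8.54% of all genes were higher and 10.4% lower, and ECHS1 was called too without the SF library of Moon at 6 d. ACAA2 changed by 0.62 ± 0.13 log2 units (FDR = 0.000395) and HADHA by 0.38 ± 0.12 (FDR = 0.0214). With the Dealings and Dreamer libraries of ISF at 96 h left out HADHA was at 0.37 and did not pass (FDR = 0.06), and it also lost its call without Dreamer, Lurie, Ollie or RimRun. From 48 to 96 h in SF, ACAA2 (0.72 ± 0.13, FDR = 2.3e-05), ACADL, ECHS1 and HADHA rose and ACADVL fell, where 11.5% of all genes were higher and 15.8% lower. The calls of ECHS1 (0.50 ± 0.19, FDR = 0.0362) and HADHA (0.33 ± 0.12, FDR = 0.0401) were each lost in leaving out any of Catnip, Dreamer, Lurie, Ollie and RimRun, and that of ECHS1 also without Dealings. Both were lost with no filter and after rescaling by the median of ratios.

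Later intervals brought few calls. From 96 h to 6 d, 0 of 8 enzymes were called in either fluid by limma, with 6.38% of all genes called in ISF and 2.05% in SF. At an unadjusted p under 0.05, 1 enzyme (ACAA2) passed in ISF and 2 (ACAA2 and ECHS1) in SF, and voom on the recovered reads also called 0. ACAA2 was called in this interval when horse was a block, at 0.35 ± 0.11 log2 units in ISF (FDR = 0.0268) and 0.40 in SF (FDR = 0.0233), and in ISF also without the SF library of Moon at 6 d (FDR = 0.0455). From 6 to 10 d only ACAA2 in ISF was called, where 5.09% of all genes were higher and 5.44% lower, at 0.42 ± 0.13 log2 units (FDR = 0.0293), in 7 of 7 horses. This call was lost without Dealings, Flash, Lurie, Ollie or RimRun and with only the groups compared, and held with horse as a block. From 6 to 10 d in SF 0 of 8 were called by limma and by voom, with 4.78% of all genes called, and 1 (ECHS1) had an unadjusted p under 0.05.

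The make-up of the pathway shifted accordingly. The summed GeTMM of the 8 enzymes had a median of 429 at 0 h, 547, 636, 702 and 718 in ISF at 48 h, 96 h, 6 d and 10 d, and 512, 533, 540 and 578 in SF. ACADVL made up a median of 45.8% of this sum at 0 h (42.9% to 48.2%), 31.5% in ISF at 10 d (26.8% to 32.2%) and 30.3% in SF at 10 d (28.7% to 33.2%). The shares at 0 h and at 10 d did not overlap. CPT1A made up a median of 7.44% at 0 h, 20.2% in ISF at 96 h and 12.5% in SF at 96 h. By mean GeTMM CPT1A was the fifth of the 8 enzymes at 0 h and came next after ACADVL in ISF at each time, above HADHA in 6 of 7, 6 of 8, 6 of 8 and 5 of 7 libraries at 48 h, 96 h, 6 d and 10 d. In SF, ECHS1 held that place at each time. The ratio of ACADVL to ACADL fell from a median of 97.6 at 0 h to 27.3 in ISF and 28.9 in SF at 10 d.

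ISF was compared with SF at each time to describe how the cells differed between the fluids, which also came from different joints. At 48 h 0 of 8 enzymes passed the limma test, where 1.68% of all genes did, and voom on the recovered reads also called 0. CPT1A and HADHA had an unadjusted p under 0.05. CPT1A was 0.93 ± 0.28 log2 units higher in ISF (FDR = 0.0654) and was higher in 7 of 7 horses, although the groups overlapped. It passed with horse as a block (FDR = 0.0232) and without the SF library of Moon at 6 d (FDR = 0.02), which enters only through the shared estimate of the spread.

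At 96 h CPT1A was the only enzyme called in ISF against SF, where 6.16% of all genes were higher and 4.3% lower. The difference was 0.84 ± 0.26 log2 units (FDR = 0.0251), with 8 of 8 horses higher, and it lost its call without Dealings, Dreamer, Lurie or Ollie. With the Dealings and Dreamer pairs left out, 6 of 6 horses were higher. HADHA (0.32 ± 0.12, FDR = 0.0818) and ACADVL (0.28 ± 0.13, FDR = 0.165) were also higher in ISF in 8 of 8 horses without passing the test. Both passed without the SF library of Moon at 6 d, and HADHA passed with horse as a block.

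At 6 d CPT1A and HADHA were called higher in ISF, where 16.7% of all genes were higher and 13.6% lower. CPT1A was 1.26 ± 0.26 log2 units higher (FDR = 0.000119), a difference that stayed past the threshold under all 18 alternatives, from 0.98 to 1.45. It was higher in 7 of 8 horses, with the largest difference in Moon (3.23) and the exception in RimRun (−0.04), whose SF library held 158 GeTMM. Without the SF library of Moon the difference was 1.03. HADHA was 0.35 ± 0.12 log2 units higher (FDR = 0.0199) in every horse but Moon, and lost its call without Dealings, Dreamer, Flash or Lurie, with only the groups compared and after rescaling by the median of ratios. ACADVL was 0.16 ± 0.13 higher with all libraries (FDR = 0.376) and 0.34 higher without the SF library of Moon (FDR = 0.00362), where it passed the test.

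At 10 d ACAA2, CPT2 and HADHA were called higher in ISF, where 9.95% of all genes were higher and 10.8% lower. ACAA2 was 0.58 ± 0.14 log2 units higher (FDR = 0.00142) in 6 of 7 horses, and its call held when each horse was left out. CPT2 was 0.46 ± 0.15 higher (FDR = 0.0222) in 7 of 7 horses, and lost its call without Dealings or Dreamer. HADHA was 0.35 ± 0.13 higher (FDR = 0.0457) in 5 of 7 horses, and lost it without Dealings, Dreamer, Lurie or Ollie, with no filter, with only the groups compared and after rescaling by the median of ratios. CPT1A was 0.55 ± 0.28 higher (FDR = 0.16) in 7 of 7 horses, and ACADVL 0.32 ± 0.14 higher (FDR = 0.0846) in 7 of 7 horses, with an FDR of 0.00991 without the SF library of Moon at 6 d and a call also with horse as a block.

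**Figure D3:**
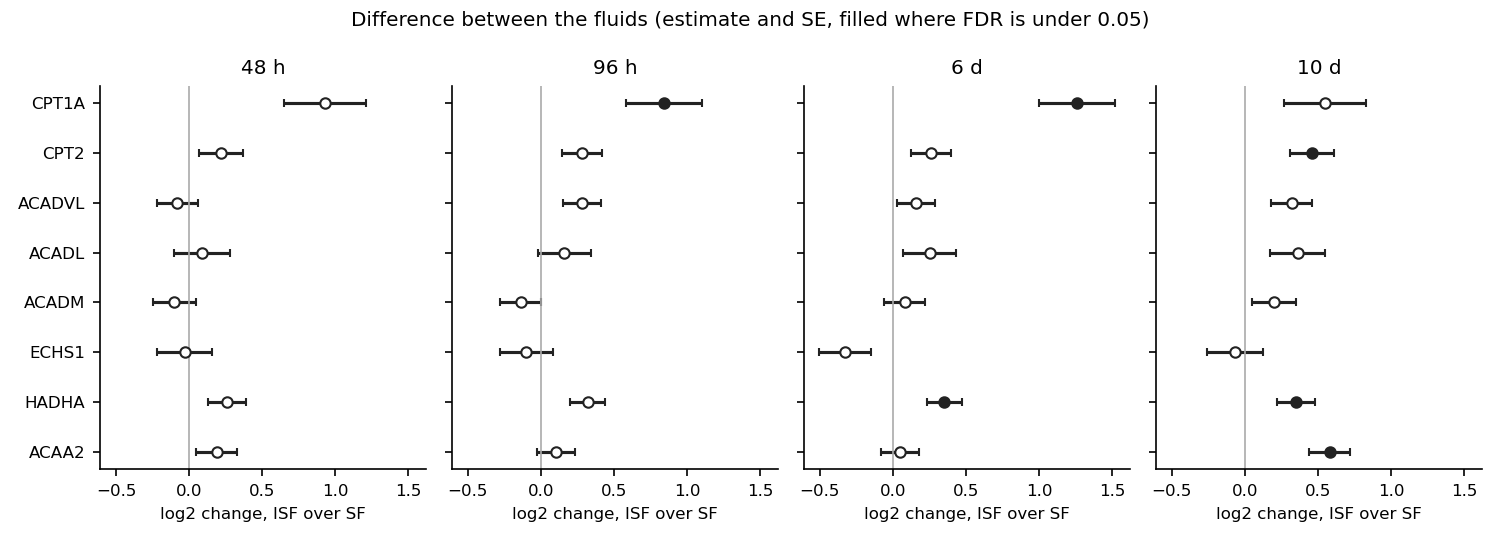
Log2 difference between ISF and SF for each enzyme at 48 h, 96 h, 6 d and 10 d, as the limma estimate with its SE and filled where the FDR is under 0.05. CPT1A lies farthest to the right at 48 h, 96 h and 6 d (0.93, 0.84 and 1.26), and ACAA2, CPT2 and HADHA are filled at 10 d.

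No enzyme was called lower in ISF at any time. The median difference over the 8 enzymes was 0.14, 0.22, 0.20 and 0.35 log2 units at 48 h, 96 h, 6 d and 10 d, beside −0.02, −0.00, 0.00 and −0.02 over all genes. ECHS1 at each time and ACADM up to 6 d did not share this direction in most horses: ECHS1 was higher in ISF in 3 of 7, 2 of 8, 3 of 8 and 2 of 7 horses, and ACADM in 3 of 7, 2 of 8, 3 of 8 and 6 of 7. ACADL was higher in ISF in 6 of 7, 4 of 8, 5 of 8 and 7 of 7 horses. With the Dealings and Dreamer pairs left out at 96 h, ECHS1 and ACADM were higher in 1 of 6 horses each, ACADL in 3, ACAA2 in 4, and CPT2, HADHA and ACADVL in 6. In all 4 comparisons the ISF and SF ranges of every enzyme overlapped. At 6 d and 10 d all 5 T cell markers were lower in ISF, as were 5 and 3 of the 6 neutrophil precursor markers, where 13.6% and 10.8% of all genes were lower. Of 7 macrophage markers MSR1 was higher in ISF at both times, where 16.7% and 9.95% of all genes were higher, and GPNMB lower at 6 d. At 96 h 2 of the 7 were higher and 1 lower, beside 6.16% and 4.3% of all genes. At 48 h 1 of the 7 was higher, where 1.68% of all genes were called. Of 4 cell cycle markers tested 2 were higher in ISF at 96 h, 3 at 6 d and 0 at 10 d, beside 6.16%, 16.7% and 9.95% of all genes. All 4 fell in ISF from 6 to 10 d, where 5.44% of all genes fell. At 10 d all 5 stromal markers were lower in ISF, beside 10.8% of all genes. The part of these markers in the differences between the fluids was not tested.

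**Figure D4:**
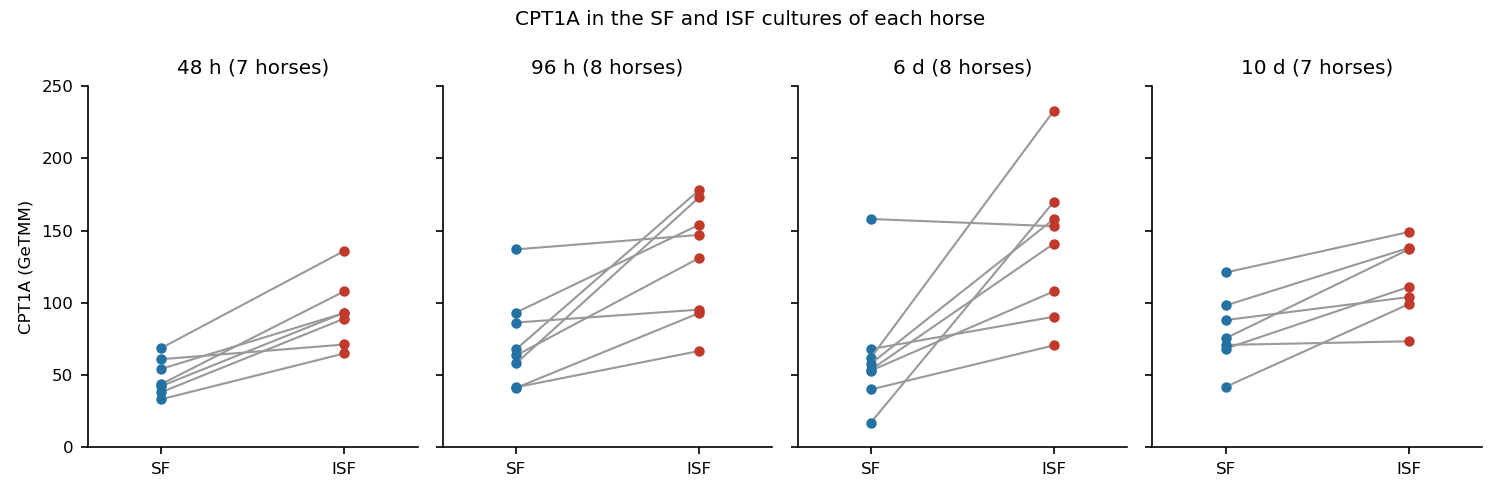
CPT1A level (GeTMM) in the SF culture (blue) and the ISF culture (red) of each horse at each time, joined by a line. The line rises in 7 of 7 horses at 48 h, 8 of 8 at 96 h, 7 of 8 at 6 d and 7 of 7 at 10 d, and the flat line at 6 d belongs to RimRun.

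An interaction term tested whether the gap between ISF and SF differed between 48 h and 10 d. By limma 0 of 8 enzymes were called, as by voom, where 2.99% of all genes were, and only ACADVL had an unadjusted p under 0.05. Its difference between ISF and SF was −0.08 log2 units at 48 h and 0.32 at 10 d, a change of 0.40 ± 0.19 (FDR = 0.273), which passed without the horse Moon. For CPT1A the change of the difference was −0.38 ± 0.39 log2 units (FDR = 0.718).

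Of 13 auxiliary and short-chain genes of beta-oxidation, 11 were tested, and all 11 rose from 0 h to 10 d in each fluid, where 36.1% of all genes rose in ISF and 34.7% in SF. ETFA, a subunit of the flavoprotein that takes electrons from the acyl-CoA dehydrogenases, changed the most in ISF, from a mean of 19 GeTMM at 0 h to 76.9 (1.95 ± 0.16 log2 units, FDR = 1.21e-16), and reached 47.1 in SF (1.23 ± 0.16). ETFB, its other subunit, rose by 0.73 ± 0.23 in ISF and 0.79 ± 0.23 in SF, and ETFDH, which passes the electrons on to ubiquinone, by 1.23 ± 0.16 and 1.19 ± 0.16. ETFA was 0.72 ± 0.17 log2 units higher in ISF than in SF at 10 d (FDR = 0.00116). In contrast ACAT1, the mitochondrial acetoacetyl-CoA thiolase, and ECI2, an enoyl-CoA isomerase, were lower in ISF: ACAT1 by −0.62 ± 0.14 at 96 h, −0.99 ± 0.14 at 6 d and −0.59 ± 0.14 at 10 d, and ECI2 by −0.85 ± 0.20 at 96 h and −0.88 ± 0.20 at 6 d. In this list 0 were higher and 2 lower in ISF at 96 h, beside 6.16% and 4.3% of all genes. At 6 d 2 and 2 were, beside 16.7% and 13.6%. Without the SF library of Moon 4 and 2 were, but those shares are of the fit with all libraries. At 10 d 3 and 1 were, beside 9.95% and 10.8%.

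Of the 6 carnitine shuttle partners, 3 rose and 1 fell over 10 d in ISF, and 2 rose and 2 fell in SF, where over all genes 36.1% rose and 38.4% fell in ISF and 34.7% and 34.9% in SF. At 6 d 1 of the 6 was higher and 1 lower in ISF than in SF, beside 16.7% and 13.6% of all genes. SLC25A20, the inner membrane carrier that exchanges acylcarnitine for carnitine, was 34.6 GeTMM at 0 h, 47.1 in ISF and 29.8 in SF at 6 d, a difference of 0.63 ± 0.14 log2 units (FDR = 0.000359). CROT, the peroxisomal carnitine octanoyltransferase, was the only gene of the list called at 10 d, where 9.95% of all genes were higher and 10.8% lower. CROT was higher in ISF by 0.86 ± 0.22 (FDR = 0.00258). Its mean was lower in ISF than in SF before that, at 2.64 and 3.29 GeTMM at 48 h, 2.26 and 3.7 at 96 h, and 3.07 and 4.05 at 6 d. Without the SF library of Moon it was called lower in ISF at 6 d (−0.45 ± 0.18, FDR = 0.0431). CPT1B, the muscle form of the entry enzyme, fell from a mean of 1.43 GeTMM at 0 h to 0.301 in ISF and 0.215 in SF at 10 d, and CPT1C, the brain form, rose from 0.548 to 3.49 and 2.68, so that CPT1A was the most abundant of the 3 forms in every group.

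Of 10 genes of fatty acid uptake and activation, 8 rose and 1 fell in ISF over 10 d, beside 36.1% and 38.4% of all genes. In SF 7 rose and 1 fell, beside 34.7% and 34.9%. FABP5, a cytosolic fatty acid carrier, changed the most, from 19.6 GeTMM to 1339 in ISF and 939 in SF (6.01 ± 0.27 and 5.49 ± 0.27 log2 units). CD36, the fatty acid and lipoprotein receptor of macrophages, went from 28.5 to 1366 and 1022 GeTMM. ACSL1, the long-chain acyl-CoA synthetase that supplies CPT1, was the 1 gene that fell, from 240 to 47.8 and 50.2 GeTMM (−2.31 ± 0.25 and −2.24 ± 0.25). At 6 d ACSL4, CD36, ACSL5 and SLC27A4 were higher in ISF than in SF (4 of 10, none lower, where 16.7% of all genes were higher and 13.6% lower), with CD36 at 1.00 ± 0.24 log2 units (FDR = 0.00103) and ACSL4 at 1.05 ± 0.22 (FDR = 0.000136). Without the SF library of Moon at 6 d, 6 of the 10 were higher and 0 lower, with CD36 at 0.68 ± 0.19 and ACSL4 at 0.74 ± 0.17. The added calls were FABP4 (2.09 ± 0.78) and FABP5 (0.87 ± 0.21). The shares of 16.7% and 13.6% are of the fit with all libraries. CD36 did not pass at 6 d when only the groups compared entered the fit. At 96 h only ACSL5 (0.66 ± 0.13) and at 10 d only SLC27A4 (0.70 ± 0.14) were called, both higher in ISF. Among all genes 6.16% were higher and 4.3% lower at 96 h, and 9.95% and 10.8% at 10 d.

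Genes of stored lipid and its release, with the droplet coat protein PLIN2 counted among them, moved in both directions, as in the whole set of tested genes. Of 6, in ISF 2 rose and 3 fell over 10 d, where 36.1% of all genes rose and 38.4% fell. In SF 3 rose and 3 fell, where 34.7% of all genes rose and 34.9% fell. LIPA, the lysosomal acid lipase, rose from a mean of 22.8 GeTMM to 763 in ISF and 1268 in SF, while LIPE, hormone-sensitive lipase, fell from 19.8 to 1.43 and 4.11, and PNPLA2, adipose triglyceride lipase, from 306 to 129 and 136. Between the fluids 0 of the 6 were higher and 1 lower in ISF at 96 h, beside 6.16% and 4.3% of all genes. At 6 d 1 and 3 were, beside 16.7% and 13.6%. Without the SF library of Moon 2 and 3 were, but those shares are of the fit with all libraries. At 10 d 1 and 2 were, beside 9.95% and 10.8%. The gene of the 6 that was higher at 6 d and at 10 d was PLIN2, which coats lipid droplets. LIPA was lower in ISF than in SF by −1.34 ± 0.27 log2 units at 96 h (FDR = 0.000384). Its mean was also lower in ISF at 48 h (244 against 438 GeTMM) and 6 d (688 against 1309), as at 10 d. Without the SF library of Moon the LIPA difference at 6 d was −1.12 ± 0.24 (FDR = 0.000225). MGLL, monoacylglycerol lipase, was lower by −1.62 ± 0.41 at 6 d and −1.75 ± 0.44 at 10 d (FDR = 0.00174 and 0.0025).

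Of the 4 genes tested that set malonyl-CoA, the inhibitor of CPT1A, 2 rose and 2 fell over 10 d in each fluid. Among all genes 36.1% rose and 38.4% fell in ISF, and 34.7% and 34.9% in SF. Between the fluids 0 of the 4 were higher and 1 was lower in ISF at 6 d, as at 10 d. Among all genes 16.7% were higher and 13.6% lower at 6 d, and 9.95% and 10.8% at 10 d. ACACB, the acetyl-CoA carboxylase at the mitochondrial surface, fell from 8.29 to 2.76 GeTMM in ISF (−1.29 ± 0.13) and to 3.98 in SF (−0.90 ± 0.13). It was lower in ISF than in SF by −0.42 ± 0.13 at 6 d (FDR = 0.00879), a call lost without Catnip and with only the groups compared. Without the SF library of Moon the difference at 6 d was −0.54 ± 0.12 (FDR = 0.000181). ACACA, the cytosolic carboxylase of fatty acid synthesis, rose by 1.11 ± 0.22 in ISF and 1.29 ± 0.22 in SF, and MLYCD, which breaks malonyl-CoA down, by 0.46 ± 0.09 and 0.54 ± 0.09. PRKAA1, a catalytic subunit of the kinase that inhibits the carboxylases, fell by 0.79 and 0.94 log2 units.

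Of 9 regulators and sentinel targets tested, 5 rose and 1 fell over 10 d in ISF, beside 36.1% and 38.4% of all genes. In SF 7 rose and 0 fell, beside 34.7% and 34.9%. PPARGC1A, the coactivator of mitochondrial genes, was near its detection limit at 0 h, with a mean of 0.0675 GeTMM, and reached 14.3 ± 5.41 (SD, n = 7) in ISF and 4.94 ± 2.09 in SF at 10 d. It was higher in ISF by 1.42 ± 0.26 log2 units at 6 d (FDR = 2.51e-05) and 1.37 ± 0.28 at 10 d (FDR = 0.000211). PPARG, the nuclear receptor of fatty acid storage, rose from 6.9 GeTMM to 27.7 in ISF and 35.2 in SF at 10 d (1.77 ± 0.15 and 2.19 ± 0.15). Before that its mean was higher in ISF than in SF, at 22.3 and 19.8 GeTMM at 48 h, 29.9 and 26.2 at 96 h, and 37 and 30.6 at 6 d. Of the 9 genes 0 were called between the fluids at 48 h and 96 h. Among all genes 1.68% were called at 48 h, and 6.16% were higher and 4.3% lower at 96 h. PPARA, the receptor best known for driving these enzymes in liver, was 3.86 GeTMM at 0 h and 5.51 in ISF and 6.16 in SF at 10 d. PPARD, a receptor of the same family, was lower in ISF than in SF at 10 d (−0.64 ± 0.23, FDR = 0.0382), a call lost without Catnip, Dealings, Dreamer, Lurie, Moon or Ollie. PDK4, a kinase that spares glucose and a common target of these receptors, had means of 0.105 to 2.4 GeTMM over the groups and rose in SF by 0.84 ± 0.34 log2 units over 10 d (FDR = 0.0225), a call lost without Lurie and under voom. ESRRA was listed at 0 in every library.

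**Figure D5:**
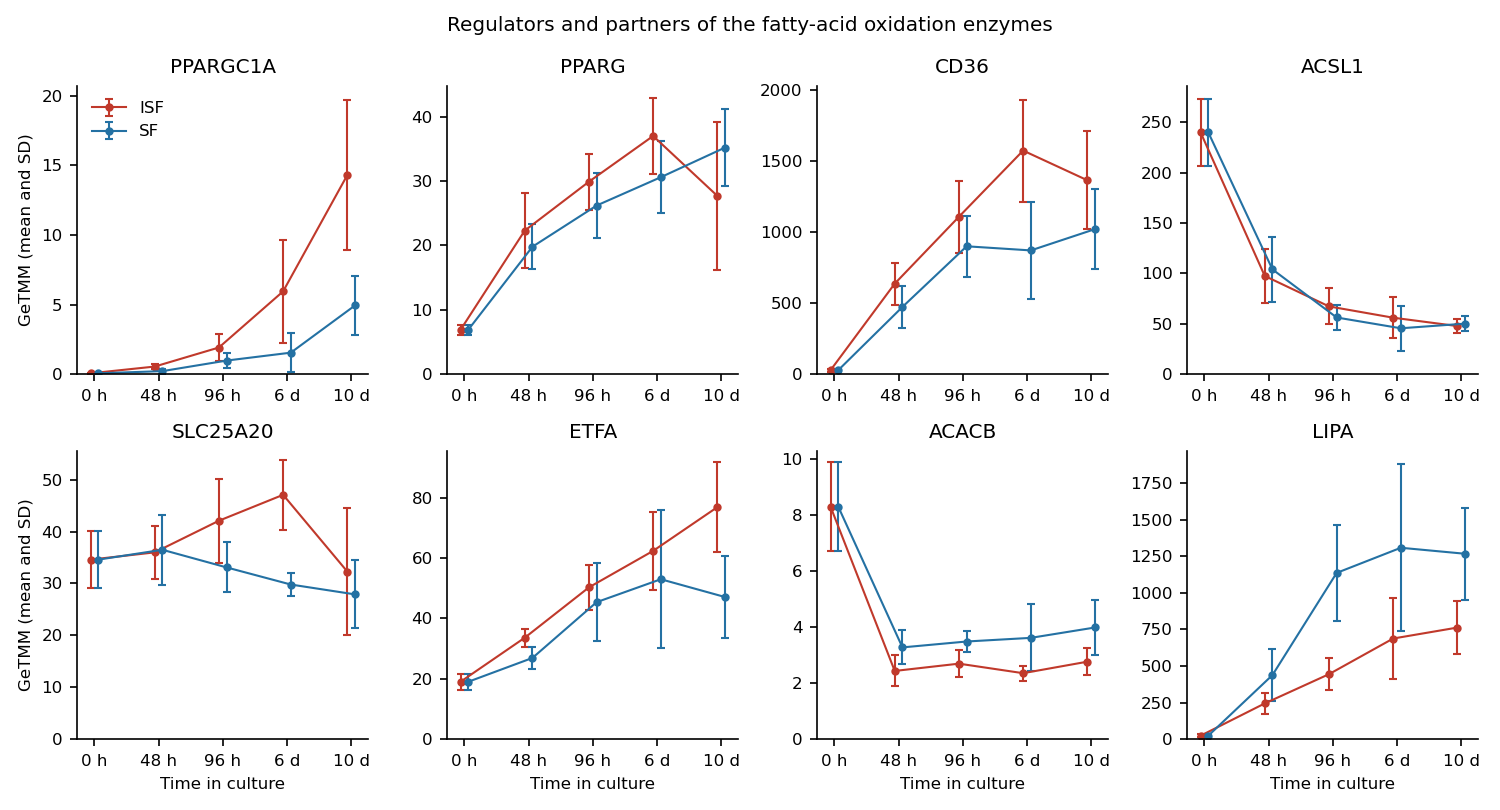
Mean level (GeTMM, with SD) of 8 regulators and partner genes at 0 h and in ISF (red) and SF (blue) at each time, with 7 or 8 libraries per point. PPARGC1A reaches 14.3 in ISF and 4.94 in SF at 10 d, and ACSL1 and ACACB lie below their 0 h level at all later times. LIPA has a lower mean in ISF than in SF at each time in culture.

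Beta-oxidation in peroxisomes and the citric acid cycle were set beside the mitochondrial enzymes. Of 8 peroxisomal genes tested, 3 rose and 1 fell in ISF and 4 rose in SF over 10 d. Of all genes 36.1% rose and 38.4% fell in ISF, and 34.7% and 34.9% in SF. HSD17B4, the peroxisomal bifunctional enzyme, changed the most of the 8 (2.05 ± 0.12 and 1.91 ± 0.12 log2 units). At 6 d 3 of the 8 were higher and 1 lower in ISF than in SF, beside 16.7% and 13.6% of all genes. The median difference was 0.26 log2 units. Without the SF library of Moon the counts were 2 and 1, but those shares are of the fit with all libraries. At 10 d 0 were higher and 2 lower (median −0.15), beside 9.95% and 10.8% of all genes. ACOX3 was lower in ISF at 6 d (−0.95 ± 0.21) and 10 d (−0.72 ± 0.23, a call lost without Dealings or Dreamer). Of 16 citric acid cycle genes tested, 13 rose and 1 fell in ISF and 11 rose and 2 fell in SF, with medians of 0.74 and 0.52 log2 units beside 0.92 and 0.74 for the 8 oxidation enzymes. At 6 d 7 of the 16 were higher in ISF than in SF, led by IDH3A, a subunit of isocitrate dehydrogenase (0.79 ± 0.16, FDR = 8.97e-05), and at 10 d 6 of the 16, with 0 lower at either time, where 16.7% of all genes were higher at 6 d and 9.95% at 10 d.

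Among themselves, the 8 enzymes varied together only in part. Over the 68 libraries, which share horses and fluids, the Pearson correlation of log2 levels was 0.86 for HADHA and ACAA2 and 0.82 for ACADL and ACAA2, against −0.28 for ACADM and ACADVL and −0.20 for CPT2 and ACADM. With the mean of the other enzymes, HADHA had a correlation of 0.88, ACAA2 0.86, ACADL 0.63, CPT1A 0.56, ECHS1 0.40, ACADM 0.29, ACADVL 0.14 and CPT2 0.10. Other genes were ranked by likeness to the mean of the 8, among tested genes with a symbol and outside every list used here. Genes of the beta-oxidation, citric acid cycle, regulator and marker lists were thus not ranked. The 5 closest were GOT1, EMC7, CISD1, UQCRC2 and MGST3, with correlations of 0.938, 0.932, 0.922, 0.913 and 0.910. GOT1, the cytosolic aspartate aminotransferase, went from 18.1 GeTMM at 0 h to 54.9 in ISF and 35.4 in SF at 10 d, and UQCRC2, a core subunit of respiratory complex III, from 47.4 to 113 and 75.7.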

How the data were processed

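The members, gene lists and marker lists were chosen with earlier results of these data known. The authors mapped reads to EquCab3.0 with STAR 2.7.2a and deposited GeTMM per gene, linear values close to RPKM and scaled between libraries with edgeR. GeTMM is not a count, and log2(GeTMM + 1) entered limma 3.58.1 (R 4.3.3; lmFit and eBayes with trend; two-sided). A single fit held 68 libraries in 9 groups with no term for horse, for 14570 genes with at least 0.5 GeTMM in 7 libraries, and FDR (Benjamini-Hochberg) under 0.05 was called. Whole reads were recovered for 100% of the 24065 genes above 0 (tolerance 0.02 reads), and 1 read on a gene of 1 kilobase was worth 0.0337 to 0.0979 GeTMM. The limma step was tested on simulated data. The other analyses used Python 3.11.15.

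The labels pair libraries by horse, since ISF and SF cultures came from the same animal. In 30 ISF and SF pairs the correlation of deviations from the group means was −0.22 to 0.56 (median 0.36), above 0.1 in 26. The 18 alternatives were a pseudocount of 0.1, no filter, a block for horse, only the groups compared, rescaling by the median of ratios, library weights, an added limit of 1 on the absolute log2 change, voom on the recovered reads, leaving out each of the 8 horses, and leaving out the SF library of Moon at 6 d or the Dealings and Dreamer libraries of ISF at 96 h. Outside the 8 enzymes, genes named were the called gene of each list with the largest change in a comparison discussed, or regulators and direct partners, and CPT1B, LIPE, PNPLA2, MLYCD, PRKAA1, MSR1, GPNMB, PLIN2, ALAS2 and ESRRA were named after their values were seen. No sequence is shown, as none was in the files used here.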

Additional observations from a re-analysis of the deposited data

Results flagged for a closer look

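In each of 72 sets of libraries (8 enzymes in 9 groups) the highest and the lowest library were compared with the rest, and 7 lay farther from their neighbours than Dixon's 95% limit allows. Chance alone marks about 1 in 20 such sets. Of the 7, 4 were in the SF library of Moon at 6 d: ECHS1 at 492 GeTMM, ACADVL at 443 and ACAA2 at 74.1 were above the other 7 horses, and ACADM at 25.6 was below them. The same library had the highest neutrophil precursor sum (4799) and erythroid sum (12) of its group, and its GeTMM summed to 2321940 over all genes, where the other 67 libraries had 817795 to 1458342. The part of these in its levels was not tested. Moon's ISF library at 6 d held 80.5 GeTMM of ECHS1, 201 of ACADVL, 55 of ACAA2 and 78.9 of ACADM. CPT1A at 158 GeTMM in the SF library of RimRun at 6 d was above the other 7, as was ACADM at 85.7 in the 0 h library of Ollie, and ACADM at 48.9 in the SF library of Dreamer at 48 h was below the other 6.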

How the results depend on the processing

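Over 18 alternatives, 120 pairs of an enzyme and a comparison gave 2160 values, of which 2033 stayed on the same side of the threshold, 75 lost a call, 52 gained one and 0 changed direction while called. A pseudocount of 0.1 and voom changed no call of an enzyme. Counts of enzymes called moved by over 1.5 times as follows, and the cause was not tested. With the replicate block for horse, 1 enzyme was called for ISF against SF at 48 h, 2 at 96 h, and 1 each for ISF and SF from 96 h to 6 d, and the block moved no other count of enzymes past that limit, with 7 calls gained and 0 lost. With only the groups compared, the counts were 1 at 48 h, 3 at 96 h, 1 at 6 d and 0 for ISF from 6 to 10 d. Median-of-ratios rescaling gave 1 at 6 d and 3 for SF from 48 to 96 h, and no filter also gave 3 there. Library weights gave 2 at 48 h, 4 at 96 h, 4 at 6 d, 5 for ISF from 0 to 48 h, and 1 each for ISF from 96 h to 6 d and the interaction. The added limit of 1 on the log2 change left 0 at 96 h, 1 at 6 d, 0 at 10 d, 1 for ISF from 0 to 48 h, 0 for ISF from 48 to 96 h and from 6 to 10 d, 0 for SF from 0 to 48 h and from 48 to 96 h, and 3 for SF from 0 h to 10 d. Without the SF library of Moon at 6 d the counts were 1 at 48 h, 3 at 96 h and 1 for ISF from 96 h to 6 d.

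Leaving out each horse gave 0 to 1 enzymes for ISF against SF at 48 h, 0 to 3 at 96 h, 1 to 4 at 6 d and 1 to 4 at 10 d. In ISF it gave 3 to 4 from 0 to 48 h, 2 to 4 from 48 to 96 h, 0 to 1 from 6 to 10 d and 6 from 0 h to 10 d. In SF it gave 3 to 4, 3 to 5, 0 and 7 to 8 for the same spans. For the interaction it gave 0 to 1, and from 96 h to 6 d 0 in each fluid. The background moved too: genes called over all genes ranged over the alternatives from 75 to 2233 at 48 h (245 as reported), 402 to 4206 at 96 h (1524), 1086 to 5447 at 6 d (4405) and 924 to 4126 at 10 d (3027). In ISF they ranged from 2762 to 9072 for 0 to 48 h (7675), 636 to 4941 for 48 to 96 h (2764), 240 to 2215 for 96 h to 6 d (929), 478 to 2285 for 6 to 10 d (1533) and 5908 to 12783 for 0 h to 10 d (10856). In SF they ranged from 2228 to 7957 (6615), 926 to 6341 (3982), 61 to 558 (298), 3 to 1450 (696) and 4968 to 11838 (10141) for the same spans, and for the interaction from 173 to 1641 (436). Depth limits ACADL most, which had 21 to 313 reads per library.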
